A study of Mus musculus with 48 samples.

Results

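The transcripts of 8 B cell genes were followed in the lungs of 48 mice: Cd79a, Cd79b, Ms4a1, Pax5, Blk, Cd22, Fcrla and Cr2. They are 8 of the 47561 genes in the deposited expression table and were taken by their symbols, and the choice was made with the levels of these genes by strain and air already known. The differences between strains, between airs and between injections are therefore described below with their standard errors and without a test. The 8 genes were tested only on sex, which the choice did not use. Other genes, of the B lineage and of other cell types, were also tested, and their lists were chosen with earlier results of these data known.

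B lymphocytes recognize antigen through the B cell receptor, a membrane immunoglobulin that signals through a heterodimer of CD79A and CD79B. The cells are committed to their lineage by the transcription factor PAX5, settle in lymphoid organs and recirculate through the blood, and a small number are found in the lung. In whole lung RNA their transcripts are diluted by those of epithelial, endothelial and stromal cells. In bulk RNA, fewer B cells in a lung and less of a transcript in each B cell cannot be told apart.

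Lungs came from adult C3H/HeN (C3H) and C57Bl/6 (C57B) mice, which are inbred strains, of both sexes. Each mouse had received a single intraperitoneal injection, of saline or of aurothioglucose at 25 mg/kg (ATG, a gold-containing inhibitor of the antioxidant enzyme thioredoxin reductase), and was then kept for 96 h in room air or in hyperoxia (over 95% oxygen). The 2 strains, 2 sexes, 2 injections and 2 airs made 16 groups of 3 mice, so each strain had 12 mice in each air, of which 6 were given saline and 6 were given ATG. Each library was made from the polyA-selected lung RNA of 1 mouse. The description of the series has ATG given to all mice, so the saline groups rest on the sample labels, and the labels name no batch. The substrain of C57Bl/6 is not in the labels, and the other descriptions of the study differ on it. Values are FPKM, in which the fragments of a gene are divided by its transcript length and by the size of the library, and are comparable between genes because they are per length. Reads of both strains were mapped to a C57BL/6 reference genome, and the effect of that on C3H values was not tested. The summed FPKM of 8 genes of lung epithelium, endothelium and fibroblasts was at least 17865 in every lung. For 5 thymus genes, some of them also T cell genes, it was at most 10.6 in any lung. The 2 sets hold genes of unlike abundance, so these sums do not show whether thymus or lymph node tissue was present.

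On the mouse assembly GRCm38 (mm10), Cd79a lies on chromosome 7 from 24897381 to 24902197 and Cd79b on chromosome 11 from 106311341 to 106314762. Ms4a1 is on chromosome 19 (11249675 to 11266241), Pax5 on chromosome 4 (44524757 to 44710487) and Blk on chromosome 14 (63372836 to 63417037). Cd22 is on chromosome 7 (30865402 to 30880342), and Fcrla and Cr2 are both on chromosome 1 (170917576 to 170927583 and 195136811 to 195176716). Antisense genes overlap Ms4a1, Pax5 and Cd22 in the annotation, and whether fragments were assigned by strand is not given in the sources used here.

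The RefSeq promoter table of GRCm38.p6 held 5 of the 8 genes, namely Cd79a, Cd22, Fcrla, Pax5 and Cr2. The 250 bases before the RefSeq transcription start are given below for the 3 of them whose window touches no annotated exon, namely Fcrla, Cr2 and Pax5. Each is read 5′ to 3′ on the strand of its gene, which is the minus strand for all 3, and capitals mark the E-box CAGGTG or its reverse complement, letters read by E proteins such as E2A that act early in the B lineage.
Fcrla, chr1:170927584-170927833: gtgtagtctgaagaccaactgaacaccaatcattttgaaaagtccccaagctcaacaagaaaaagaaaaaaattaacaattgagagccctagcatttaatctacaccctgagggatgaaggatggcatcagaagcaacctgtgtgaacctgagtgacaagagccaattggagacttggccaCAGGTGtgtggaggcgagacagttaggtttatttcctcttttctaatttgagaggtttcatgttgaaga
Cr2, chr1:195176720-195176969: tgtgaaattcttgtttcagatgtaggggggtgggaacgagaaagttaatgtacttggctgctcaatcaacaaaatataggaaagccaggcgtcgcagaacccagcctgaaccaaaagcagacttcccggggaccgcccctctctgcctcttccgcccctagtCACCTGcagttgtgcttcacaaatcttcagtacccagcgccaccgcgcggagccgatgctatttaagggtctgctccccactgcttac
Pax5, chr4:44710695-44710944: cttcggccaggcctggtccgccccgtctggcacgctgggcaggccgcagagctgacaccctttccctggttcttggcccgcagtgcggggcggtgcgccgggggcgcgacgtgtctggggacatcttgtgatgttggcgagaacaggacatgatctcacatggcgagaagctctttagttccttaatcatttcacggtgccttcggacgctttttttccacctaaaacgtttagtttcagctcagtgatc
The E-box was present in 4 of the 5 windows, in that of Fcrla 69 bases before the start and in that of Cr2 88 bases before it, and it was absent from the window of Pax5. Of 32851 promoter windows of the same length in the table, 17.2% held it on either strand. The core of the early B cell factor EBF1, the letters TCCC and GGGA set apart by any 2 bases, was found in Cd22 alone (0.779% of all windows), the Ets core AGGAAGTG in Cd79a alone (3.14%), and the octamer ATTTGCAT in none of the 5 (1.6%). None of these matches overlapped another. A match is a description of letters and not of binding.

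Cd79a and Cd79b, the signalling subunits of the receptor, were the most abundant of the 8 transcripts. In room air, Cd79a lay between 12.9 and 37.2 FPKM in the 12 C57B lungs (median 25.7) and between 3.85 and 16.7 in the 12 C3H lungs (median 10.2). In hyperoxia it lay between 2.71 and 18.9 in C57B (median 8.41) and between 1.92 and 10.2 in C3H (median 4.52). The C57B lungs in room air were thus the highest group, and the 3 other groups overlapped one another widely. Cd79b had medians of 37.0 FPKM in C57B and 17.0 in C3H in room air, with ranges of 24.0 to 53.0 and 10.7 to 36.0. In hyperoxia its medians were 15.4 and 9.18, with ranges of 7.35 to 25.4 in C57B and 5.88 to 15.8 in C3H. The 2 subunits followed each other from lung to lung, with a Pearson r of 0.96 across the 48 lungs and of 0.89 after the means of the 16 groups were removed. This correlation is a description, since lungs of a group share their conditions.

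Blk, a Src family kinase of the B cell receptor pathway, was much less abundant. It had a median of 2.55 FPKM in C57B in room air, with a range of 1.38 to 3.85. In C3H in room air the median was 1.11 (0.356 to 1.67). In hyperoxia the medians were 0.889 in C57B (0.0673 to 1.44) and 0.701 in C3H (0.285 to 1.70). Blk therefore showed the same order as the receptor subunits, with the C57B lungs in room air highest and the ranges of the hyperoxic lungs of both strains overlapping.

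Ms4a1 encodes CD20, a surface protein of mature B cells. It lay between 5.49 and 10.8 FPKM in C57B lungs in room air (median 7.42) and between 0.787 and 4.92 in C3H lungs in room air (median 2.86). In hyperoxia the ranges were 0.536 to 4.64 in C57B (median 2.18) and 0.828 to 3.30 in C3H (median 1.94). Every C57B lung in room air was above every other lung for this transcript. Fcrla, an Fc receptor-like protein retained inside B cells, had the same pattern. Its range was 6.60 to 13.3 FPKM in C57B in room air (median 9.15) and 1.32 to 5.22 in C3H in room air (median 2.43). In hyperoxia it had a median of 2.71 in C57B (0.341 to 4.78) and 1.90 in C3H (0.598 to 3.17).

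Cd22, a lectin that inhibits receptor signalling, varied least between the groups. Its median in room air was 4.03 FPKM in C57B (2.71 to 6.50) and 2.28 in C3H (0.901 to 3.81). In hyperoxia the medians were 2.66 in C57B (1.12 to 4.53) and 2.85 in C3H (1.23 to 5.87), so that in C3H the hyperoxic lungs had the higher median. Cr2 encodes complement receptor 2, which B cells share with follicular dendritic cells, and it was the least abundant. Its medians in room air were 1.21 FPKM in C57B (0.525 to 1.65) and 0.865 in C3H (0.212 to 1.65). In hyperoxia the median was 0.0655 in C57B (0 to 0.400) and 0.371 in C3H (0 to 2.07), which makes Cr2 the member with the lowest level in hyperoxic C57B lungs. Cr2 was listed at 0 in 2 of the 48 lungs, and the other 7 genes were above 0 in all of them.

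Pax5 encodes the lineage factor named above. Its medians in room air were 3.17 FPKM in C57B (2.14 to 8.70) and 2.23 in C3H (0.478 to 10.8). In hyperoxia they were 1.18 in C57B (0.117 to 2.29) and 1.22 in C3H (0.316 to 3.91). The highest value belonged to mouse 1, a C3H male given saline in room air. Mouse 48, a C57B female given ATG in hyperoxia, had the lowest Pax5, Blk and Fcrla of all 48 mice. The plot of the 8 genes by mouse shows these values.

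**Figure D1:**
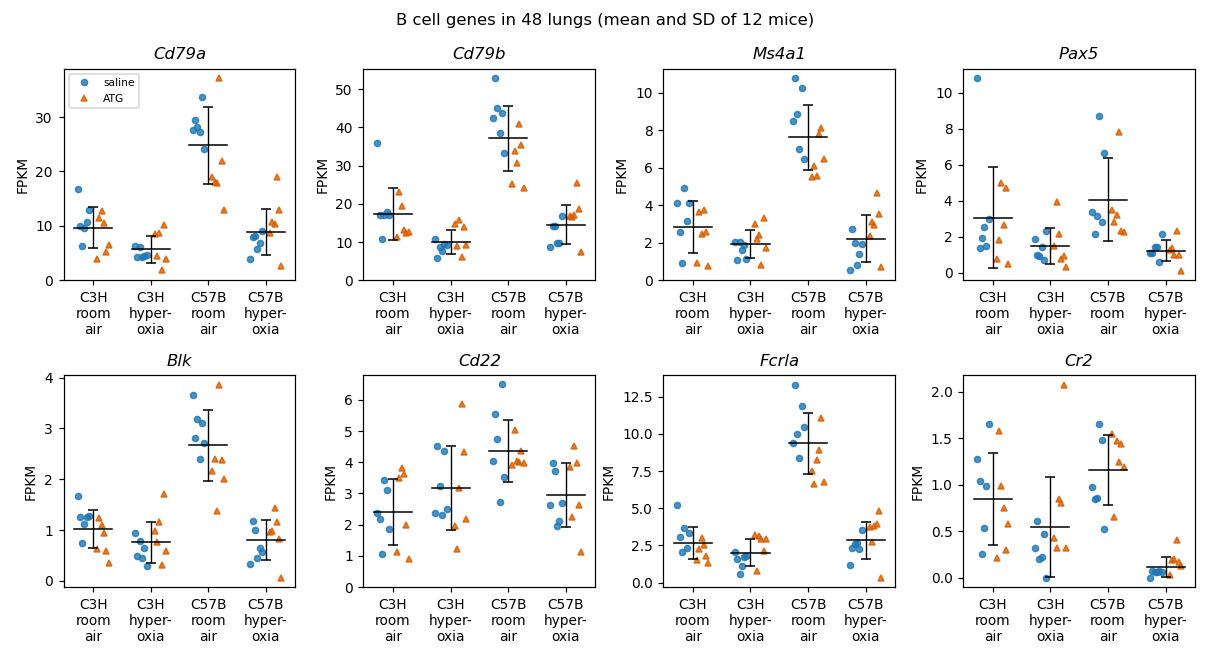
FPKM of the 8 B cell genes in each of the 48 lungs, by strain and air (x axis), with circles for saline and triangles for ATG and with lines for the mean and SD of 12 mice. The C57B lungs in room air have the highest median for each gene, and for Ms4a1 and Fcrla all 12 of them are above the other 36 lungs.

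When each strain and air was further divided by injection, the order of the 8 sets of 6 mice put saline C57B lungs in room air first for 7 of the 8 genes. The exception was Cr2, for which ATG C57B lungs in room air came first with a median of 1.34 FPKM. Neighbours in this order overlapped in nearly all cases. The 2 exceptions were Ms4a1 and Fcrla, for which both C57B sets in room air were clear of the third set, with medians of 6.30 against 3.62 FPKM for Ms4a1 and of 7.88 against 3.77 FPKM for Fcrla.

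The first comparison was of the strains within each air, as C3H minus C57B on the scale of log2(FPKM + 1), which understates the changes of low transcripts such as Blk and Cr2. In room air all 8 differences were negative. They were -1.52 ± 0.18 (SE, 12 mice against 12) for Fcrla, -1.31 ± 0.22 for Cd79a, -1.25 ± 0.19 for Ms4a1 and -1.10 ± 0.17 for Cd79b. They were smaller for Blk (-0.86 ± 0.12), Cd22 (-0.70 ± 0.17), Pax5 (-0.45 ± 0.24) and Cr2 (-0.25 ± 0.13). The 12 lungs of each strain did not overlap for 2 of the 8 genes, Ms4a1 and Fcrla, as was also the case for 2.82% of the 16994 genes tested. The median of the 8 differences was -0.98, against -0.07 for all genes tested. Without mouse 1, the difference of Pax5 was -0.63 ± 0.22 and that of Cd79b -1.21 ± 0.16.

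In hyperoxia the strain differences were smaller and of both signs. Cd79a and Cd79b remained lower in C3H by value, at -0.52 ± 0.22 and -0.48 ± 0.17, as did Fcrla at -0.33 ± 0.18. Ms4a1, Blk, Cd22 and Pax5 were near 0, at -0.07 ± 0.19, -0.03 ± 0.12, 0.06 ± 0.17 and 0.12 ± 0.24. Cr2 was higher in C3H, at 0.42 ± 0.13, with mouse 35 of C3H at 2.07 FPKM. The medians of Cr2, which depend less on that mouse, were 0.371 FPKM in C3H and 0.0655 in C57B. The median over the 8 genes was -0.05, against 0.04 for all genes. The strains overlapped for each of the 8 genes, so that 0 of 8 were apart, beside 3.98% of all genes tested. Within saline mice alone the strains were apart in room air for 4 genes (Cd79a, Ms4a1, Blk and Fcrla, beside 5.57% of all genes) and within ATG mice for 6 (also Cd79b and Cd22, beside 7.56%). In hyperoxia 0 of 8 genes were apart in saline mice (beside 10.5% of all genes) or in ATG mice (beside 11.6%).

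The second comparison was of hyperoxia minus room air within each strain. In C57B the differences were -1.50 ± 0.19 for Ms4a1, -1.50 ± 0.18 for Fcrla, -1.47 ± 0.22 for Cd79a and -1.33 ± 0.17 for Cd79b. They were -1.12 ± 0.24 for Pax5, -1.04 ± 0.12 for Blk, -0.93 ± 0.13 for Cr2 and -0.47 ± 0.17 for Cd22. All 8 were thus negative, with a median of -1.23 against -0.03 for all genes. The airs did not overlap for 3 genes, Ms4a1, Fcrla and Cr2, as for 19.8% of all genes tested.

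In C3H the same differences were smaller in size. They were -0.71 ± 0.17 for Cd79b, -0.68 ± 0.22 for Cd79a, -0.56 ± 0.24 for Pax5 and -0.32 ± 0.19 for Ms4a1. Fcrla, Cr2 and Blk were at -0.31 ± 0.18, -0.26 ± 0.13 and -0.20 ± 0.12, and Cd22 was at 0.29 ± 0.17, the only positive value. The median was -0.31 against 0.09 for all genes, and 0 of 8 genes were apart between the airs, beside 8.61% of all genes tested. Without mouse 1 the difference of Pax5 was -0.38 ± 0.22. The plot of differences by strain and air shows both comparisons.

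**Figure D2:**
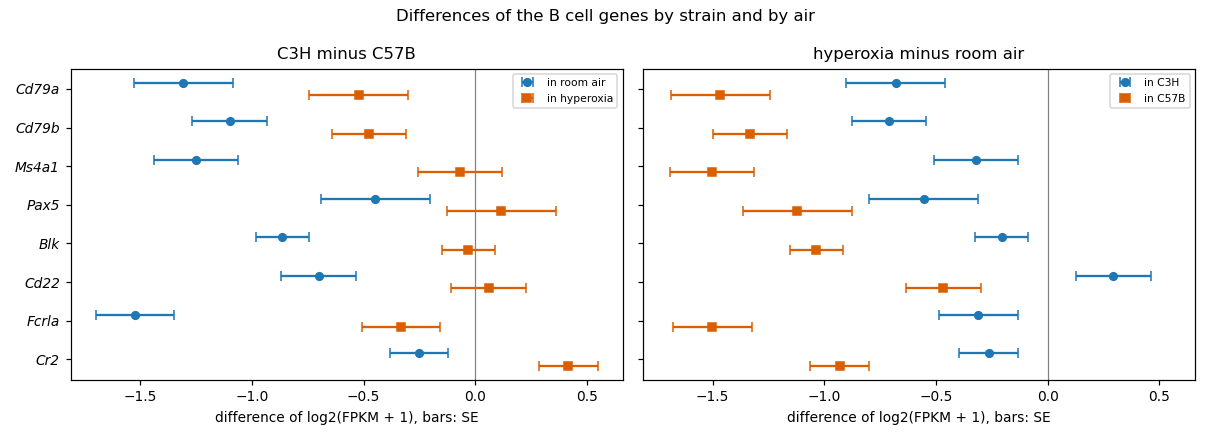
Differences of log2(FPKM + 1) for the 8 genes (points, with bars for the SE), on the left C3H minus C57B in room air (circles) and in hyperoxia (squares) and on the right hyperoxia minus room air in C3H (circles) and in C57B (squares). In room air the strain differences run from -1.52 to -0.25 and in hyperoxia from -0.52 to 0.42, and the change with air is more negative in C57B than in C3H for each gene.

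Whether the strain difference depended on air was taken as the strain difference in hyperoxia minus that in room air. This value was positive for all 8 genes. It was 1.19 ± 0.25 for Fcrla, 1.18 ± 0.27 for Ms4a1, 0.83 ± 0.17 for Blk and 0.79 ± 0.31 for Cd79a. It was 0.76 ± 0.24 for Cd22, 0.67 ± 0.19 for Cr2, 0.62 ± 0.24 for Cd79b and 0.57 ± 0.35 for Pax5. The median was 0.77, against 0.10 for all genes, a shift of all genes that was -0.02 after quantile normalization. The values within each injection were also positive for all 8 genes, with a median of 0.81 in saline mice and of 0.79 in ATG mice.

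The members were also taken relative to Ptprc, the transcript of the pan-leukocyte surface protein CD45, in the same lung. Ptprc itself had medians of 29.1 FPKM in C57B and 18.4 in C3H in room air, and of 15.5 in C57B and 21.8 in C3H in hyperoxia. Its difference between airs was thus negative in C57B (-0.84 ± 0.16) and positive in C3H (0.36 ± 0.16). Relative to Ptprc, and with 1 added to each FPKM, the dependence of the strain difference on air was no longer positive for any of the 8 genes, with a median of -0.43. It was -0.63 ± 0.37 for Pax5, -0.57 ± 0.25 for Cd79b, -0.53 ± 0.23 for Cr2 and -0.44 ± 0.20 for Cd22. Cd79a (-0.41 ± 0.31), Blk (-0.37 ± 0.26), Ms4a1 (-0.02 ± 0.30) and Fcrla (-0.01 ± 0.24) were within 2 SE of 0, as was Pax5. Hyperoxia minus room air relative to Ptprc had a median of -0.67 in C3H and of -0.38 in C57B. Cd22 in C57B was the only positive value of these, at 0.37 ± 0.15. The strain difference relative to Ptprc had a median of -0.21 in room air, with 5 of 8 genes below 0 and a range of -0.76 (Fcrla) to 0.52 ± 0.17 (Cr2). Pax5 (0.32 ± 0.26) and Cd22 (0.07 ± 0.14) were the other positive values. In hyperoxia the median was -0.48, with 8 of 8 below 0. The 1 added to each FPKM shrinks the changes of low transcripts more than those of the more abundant Ptprc. The sign of the relative values can depend on it. The ratio to Ptprc was not repeated with 0.1 added, a setting that moved the median dependence as deposited from 0.77 to 1.18. The plot of the members as deposited and relative to Ptprc shows both sets of values.

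**Figure D3:**
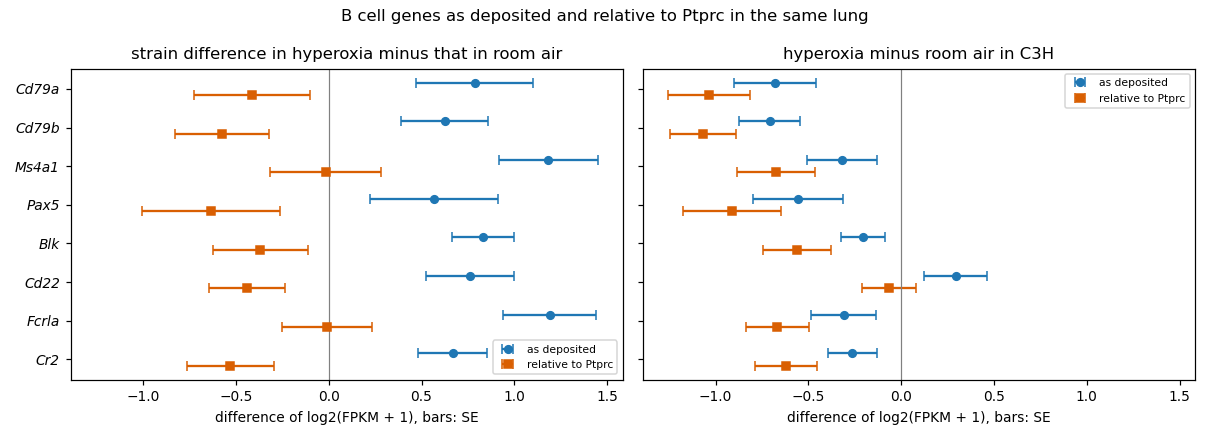
Differences of log2(FPKM + 1) for the 8 genes (points, with bars for the SE) as deposited (circles) and relative to Ptprc in the same lung (squares), on the left for the strain difference in hyperoxia minus that in room air and on the right for hyperoxia minus room air in C3H. On the left the deposited values are positive for all 8 genes (median 0.77). With 1 added to each FPKM, the relative values are below 0 for all 8 (median -0.43). Those of Fcrla (-0.01 ± 0.24) and Ms4a1 (-0.02 ± 0.30) are near 0, and no other addition was tried for the ratio.

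The third comparison was of ATG with saline. Averaged over strain and air, the differences were between -0.15 ± 0.17 for Pax5 and 0.14 ± 0.09 for Cr2, with a median of -0.03 against 0.03 for all genes. The values differed by air. In room air all 8 were negative, with a median of -0.32 and the largest for Cd79a at -0.44 ± 0.22, Fcrla at -0.40 ± 0.18 and Ms4a1 at -0.36 ± 0.19. In hyperoxia 6 of 8 were positive, with a median of 0.29 and the largest for Ms4a1 at 0.42 ± 0.19, Cd79b at 0.37 ± 0.17 and Fcrla at 0.34 ± 0.18. The ATG difference in hyperoxia minus that in room air had a median of 0.60 over the 8 genes, against 0.04 for all genes, and was 0.78 ± 0.27 for Ms4a1 and -0.02 ± 0.24 for Cd22.

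The difference between airs therefore had other values in ATG mice than in saline mice. In C3H the median over the 8 genes was -0.67 in saline mice and 0.02 in ATG mice. Ms4a1, for example, was at -0.64 ± 0.27 in saline and at 0.00 ± 0.27 in ATG C3H mice, and Fcrla was at -0.79 ± 0.25 and 0.16 ± 0.25. In C57B the medians were -1.50 in saline and -0.97 in ATG mice, with Ms4a1 at -1.96 ± 0.27 and -1.04 ± 0.27. In saline mice, the airs in C57B did not overlap for 6 genes (Cd79a, Cd79b, Ms4a1, Blk, Fcrla and Cr2, beside 31.4% of all genes) and in C3H for Fcrla (beside 13.9%). In ATG mice the airs did not overlap for Ms4a1, Fcrla and Cr2 in C57B (beside 31.2%) and overlapped for each of the 8 genes in C3H, where 24.3% of all genes were apart. The plot of ATG minus saline shows the values in each strain and air.

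**Figure D4:**
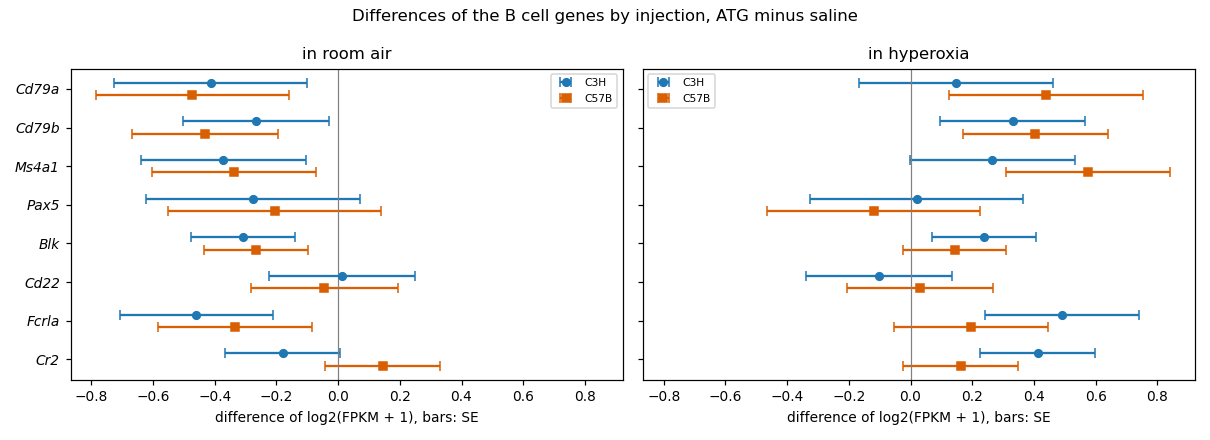
ATG minus saline on the scale of log2(FPKM + 1) for the 8 genes in room air (left) and in hyperoxia (right), with circles for C3H, squares for C57B and bars for the SE. In room air 7 of 8 values are negative in each strain (medians -0.29 in C3H and -0.30 in C57B), and in hyperoxia 7 of 8 are positive in each strain (medians 0.25 and 0.18).

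Sex was tested, since the genes were not chosen by it. None of the 8 genes differed between males and females, with adjusted p-values from 0.287 (Blk) to 0.997 (Ms4a1) in limma over the 16994 genes tested, of which 12.4% passed the threshold of 0.05. The differences, male minus female, ran from -0.06 for Cr2 to 0.15 for Cd79b, and 0 of 8 had an unadjusted p under 0.05. The 95% interval was widest for Pax5, at -0.28 to 0.42, and narrowest for Blk, at -0.03 to 0.31, so larger differences than these are outside the intervals. The sex difference also did not pass the threshold for any of the 8 genes when compared between strains (0.453% of all genes passed), between airs (4.16%) or between injections (0%). The lowest adjusted p-values of these were 0.345 for Cd22 between strains, 0.458 for Ms4a1 between airs and 0.841 for Pax5 between injections, and again 0 of 8 had an unadjusted p under 0.05 in any of the 3. A p-value that misses the threshold does not show that the sexes are alike. Of the other B lineage genes, the homing receptor Ccr7 was lower in males (-0.31 ± 0.10, adjusted p = 0.0455). The sex difference of Igha and of the light chain gene Iglc1 differed between strains (1.44 ± 0.30 for Igha, adjusted p = 0.0222, and 0.0369 for Iglc1 in the same direction), and these 3 genes were named after their values were seen.

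Other genes of the B lineage were taken from 6 lists, of receptor signalling, transcription factors, surface and homing proteins, immunoglobulin constant regions, plasma cells and B cell precursors. These lists hold 58 genes in the table, of which 50 reached 1 FPKM in 3 or more lungs and were tested. They come from the same lungs as the 8 members, so they are not independent evidence. The X-linked kinase gene Btk was listed at 0 in all lungs, as were all genes of chromosomes X and Y, so that Btk could not be tested and the labels of sex could not be checked.

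In room air, 37 of the 50 were lower in C3H and 0 were higher (limma, adjusted p under 0.05), where 19.3% of all genes were lower and 10.3% were higher. Among receptor signalling genes all 7 tested were lower, for example the scaffold Bank1 (-1.03 ± 0.14, adjusted p = 1.84e-07) and the adaptor Blnk (-0.62 ± 0.12, 0.000172). Of 8 transcription factors 6 were lower, for example Spib (-0.84 ± 0.19, adjusted p = 0.000873) and the octamer coactivator Pou2af1 (-0.75 ± 0.16, 0.000392). Of 14 surface and homing genes 12 were lower, with the largest difference for Ly6d (-2.64 ± 0.18, adjusted p = 2e-14) and the MHC class II accessory chain H2-Ob next (-1.22 ± 0.16, 2e-07). Of 11 immunoglobulin constant regions 8 were lower, with a median of -1.61. Among them was Igha, the heavy chain of IgA (-2.14 ± 0.21, adjusted p = 3.1e-10), with medians of 94.5 FPKM in C3H and 496.8 in C57B. Ighg2c, whose locus holds different alleles in inbred strains, was between 0 and 0.513 FPKM in C3H in room air and between 3.79 and 30.1 in C57B. Of 8 plasma cell genes 4 were lower, and Jchain, which joins secreted IgA and IgM, had the largest difference (-1.98 ± 0.25, adjusted p = 1.13e-07). Another of the 4 was Sdc1 (-0.35 ± 0.10, adjusted p = 0.00522). It was abundant, with medians of 99.97 FPKM in C3H and 118.3 in C57B, and which lung cells it came from was not tested. Neither of the 2 precursor genes tested passed, with Vpreb3 at -0.63 ± 0.27 (adjusted p = 0.0816).

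In hyperoxia 12 of the 50 were lower and 6 were higher in C3H, where 17.6% of all genes were lower and 22.9% were higher. Of the constant regions 6 of 11 were lower, such as Igha (-2.37 ± 0.21, adjusted p = 1.7e-11). Of the plasma cell genes 4 of 8 were lower, such as Jchain (-1.82 ± 0.25, adjusted p = 3.16e-07) and again the abundant Sdc1 (-0.38 ± 0.10, 0.00185). Another plasma cell gene, Prdm1, was higher in C3H (0.32 ± 0.09, adjusted p = 0.00343). The higher genes included Ltb, a lymphotoxin subunit (0.97 ± 0.17, adjusted p = 1.97e-05), and Fcer2a, the low-affinity IgE receptor CD23 of mature B cells (0.88 ± 0.17, 8.63e-05). Fcer2a had a median of 2.83 FPKM in hyperoxic C3H lungs and of 0.993 in hyperoxic C57B lungs. Of the receptor signalling genes 1 of 7 passed, Pik3ap1, a kinase adaptor (-0.54 ± 0.20, adjusted p = 0.0265). The plot of strain differences by gene list shows the medians of each list.

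**Figure D5:**
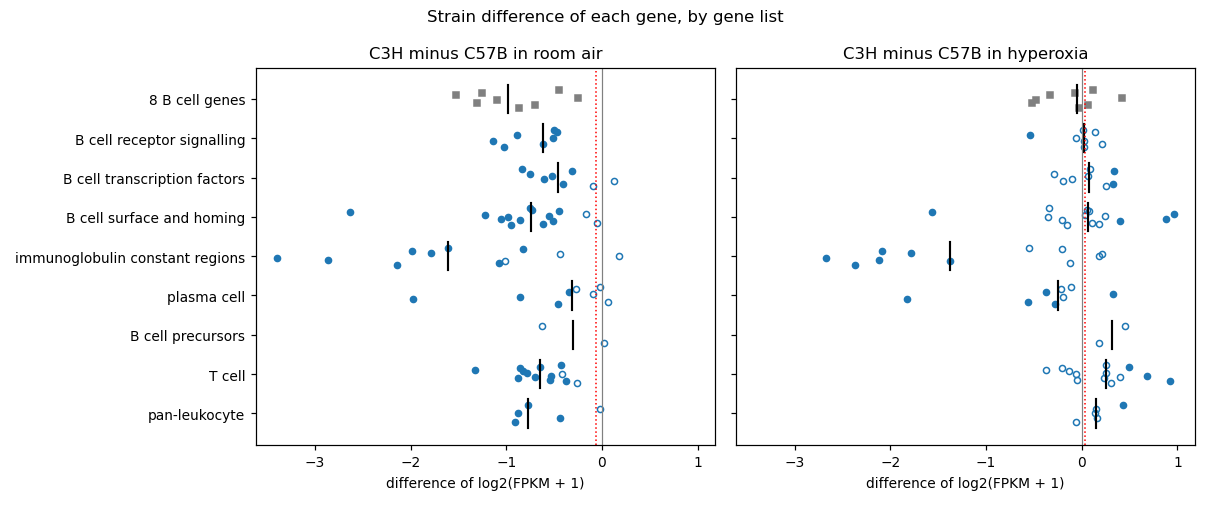
C3H minus C57B on the scale of log2(FPKM + 1) for each gene tested, by list (y axis), in room air (left) and in hyperoxia (right), with T cell and pan-leukocyte genes at the bottom. Filled circles passed an adjusted p of 0.05 and open circles did not, grey squares are the 8 B cell genes (not tested), black bars are list medians, and the dotted line is the median of all genes. The medians of the 3 lists of B cell receptor signalling, transcription factors and surface proteins are -0.62, -0.46 and -0.74 in room air and 0.03, 0.08 and 0.06 in hyperoxia, while that of the immunoglobulin constant regions is -1.61 and -1.38.

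With hyperoxia in C57B, 42 of the 50 fell and 3 rose, where 33.6% of all genes fell and 32.3% rose. Bank1 fell by 1.25 ± 0.14 (adjusted p = 3.83e-10), Fcer2a fell by 1.58 ± 0.17 (4.53e-10) and H2-Ob fell by 1.57 ± 0.16 (1.12e-10). All 8 transcription factors fell, among them Spib (-1.20 ± 0.19, adjusted p = 1.11e-06) and Pou2f2, which encodes the octamer factor OCT2 (-0.93 ± 0.11, 1.08e-09). Of the constant regions 8 of 11 fell, for example Ighd, the IgD heavy chain of mature naive B cells (-1.53 ± 0.22, adjusted p = 1.31e-07). Vpreb3 fell from a median of 23.0 to 4.34 FPKM (-2.37 ± 0.27, adjusted p = 1.52e-09). Of 7 precursor genes only 2 were tested, and the other, Vpreb1, was low, with medians of 0.656 and 0.277 FPKM. Whether B cell precursors were present in these lungs was not tested. Xbp1, a secretory pathway factor that many lung cells also express, rose (0.60 ± 0.07, adjusted p = 9e-09).

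With hyperoxia in C3H, 17 of the 50 fell and 4 rose, where 19.9% of all genes fell and 35.3% rose. The falls were in the constant regions for 7 of 11 genes, for example Igkc (-0.80 ± 0.22, adjusted p = 0.00272), and in 3 of 8 plasma cell genes, for example Derl3 (-0.83 ± 0.11, 1.18e-07). Of the 8 transcription factors 2 fell, Ebf1 (-0.62 ± 0.12, adjusted p = 3.7e-05) and Pou2f2 (-0.28 ± 0.11, 0.0253). Unlike the 8 B cell genes, Ebf1 had close medians in the strains in room air, of 2.94 FPKM in C3H and 3.02 in C57B. Its source among the cells of the lung was not tested. Among receptor signalling genes none of 7 fell and 2 rose, Pik3ap1 (0.72 ± 0.20, adjusted p = 0.00235) and the phospholipase Plcg2 (0.28 ± 0.11, 0.0265), both of which are also expressed in myeloid cells. Of the surface genes 4 of 14 fell, among them the chemokine receptor Cxcr5 (-0.41 ± 0.14, adjusted p = 0.0134) and Fcmr, an IgM Fc receptor (-0.57 ± 0.21, 0.019).

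The dependence of the strain difference on air passed the threshold for 26 of the 50, with 25 positive and 1 negative, where 19.3% of all genes were positive and 8.12% were negative. Fcer2a had the largest value (1.93 ± 0.24, adjusted p = 2.91e-07), followed by H2-Ob (1.25 ± 0.23, 9.55e-05). By list, it was positive for 5 of 7 receptor signalling genes, 4 of 8 transcription factors, 11 of 14 surface genes, 2 of 11 constant regions, 2 of 8 plasma cell genes and 1 of 2 precursor genes. The negative one was Fkbp11, a secretory pathway gene (-0.62 ± 0.23, adjusted p = 0.0424).

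ATG, averaged over strain and air, changed 0 of the 50 at the adjusted threshold in limma, where 0.106% of all genes passed, and 4 of the 50 had an unadjusted p under 0.05 (with array weights, 5 passed the adjusted threshold). In hyperoxia alone 2 passed and both were higher with ATG, Fcer2a (0.74 ± 0.17, adjusted p = 0.0104) and Blnk, a receptor adaptor (0.42 ± 0.12, 0.0406), beside 3.95% of all genes higher. The ATG difference in hyperoxia minus that in room air passed for 6, all positive (1.56% of all genes), among them Mzb1 (1.01 ± 0.24, adjusted p = 0.0193) and Bank1 (0.67 ± 0.19, 0.0483). These genes were named after their values were seen.

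Factors that attract B cells or keep them alive were followed in a further list, of which 3 genes were tested. Cxcl13, the chemokine ligand of CXCR5, rose with hyperoxia in both strains. Its median went from 1.74 to 11.7 FPKM in C57B (2.26 ± 0.23, adjusted p = 7.56e-11) and from 2.21 to 7.28 in C3H (1.29 ± 0.23, 1.06e-05), opposite in direction to the medians of Cxcr5. Tnfsf13b, which encodes the survival factor BAFF, fell in C57B from a median of 18.1 to 5.63 FPKM (-1.51 ± 0.13, adjusted p = 1.98e-12) and in C3H from 15.1 to 13.9 (-0.32 ± 0.13, 0.0406). Tnfsf13, which encodes the related factor APRIL, fell in C57B (-0.98 ± 0.10, adjusted p = 4.84e-11), and the strain difference of both survival factors depended on air (Tnfsf13b 1.20 ± 0.19, 1.1e-05, and Tnfsf13 1.04 ± 0.14, 6.22e-07).

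Markers of other cells also differed between these groups. Of 13 T cell genes, 11 were lower in C3H in room air, 13 fell with hyperoxia in C57B, 1 rose and 1 fell in C3H, and 12 had a positive dependence of the strain difference on air. Their summed FPKM had medians of 94.0 in C57B (78.1 to 124.4) and 66.2 in C3H (24.9 to 85.1) in room air, and of 35.5 (17.2 to 54.4) and 48.1 (32.2 to 61.1) in hyperoxia. Of 7 natural killer cell genes all 7 fell with hyperoxia in C57B and 4 fell in C3H, with summed medians from 84.9 to 16.5 and from 64.5 to 39.6. The red cell genes fell with hyperoxia but had another order of the strains. In room air 3 of 5 tested were higher in C3H and 1 was lower (median difference 0.68), and the dependence of the strain difference on air was positive for 0 of 5. All 5 fell in both strains, with summed medians from 7998 (3342 to 18942) to 523.7 (397.5 to 1640) FPKM in C57B and from 14321 (6497 to 67961) to 735.9 (304.9 to 2004) in C3H. Alas2, an X-linked red cell gene, was listed at 0 in all lungs.

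Neutrophil genes differed from the B cell genes in their values by air and had the same sign by strain in room air. Of 7 neutrophil genes, 6 were lower in C3H in room air and 0 were higher (median -1.28), and the dependence of the strain difference on air had a median of 1.34, with 7 of 7 values positive and 1 past the threshold. With hyperoxia 6 rose in C3H and 2 rose in C57B, and their summed medians went from 189.5 (60.8 to 313.6) to 690.0 (159.9 to 6342) FPKM in C3H and from 462.5 (181.4 to 3645) to 460.5 (164.9 to 4926) in C57B. Of 7 macrophage and monocyte genes 4 rose and 1 fell in C3H, and 5 rose and 1 fell in C57B. Of 5 pan-leukocyte genes, Ptprc among them, 3 rose in C3H, and 1 rose and 3 fell in C57B, and 4 were lower in C3H in room air. Their strain difference depended on air for 4 of 5, all positive, with a median of 0.85 over the 5. Of the follicular dendritic and lymph node stroma genes, only Clu, Enpp2 and Mfge8 were tested, since Madcam1 and Glycam1 did not reach the filter. With hyperoxia 2 of these 3 tested genes fell in each strain, and 1 rose in C3H and 0 in C57B. Which lung cells these transcripts came from was not tested. The part of blood content, of lymphoid tissue in the sampled piece and of the other cell types in the values of the B cell genes was not tested.

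Likeness between genes was measured as Pearson's r with the mean of the 8 members, each scaled to unit SD, across the 48 lungs, which share conditions by group and libraries by mouse. Among the 10 most alike of the other genes were Ighd (0.95), H2-Ob (0.93), Cxcr5 (0.92), Bank1 (0.91), Spib (0.90), Fcmr (0.90), Cd8b1 (0.89), Cd8a (0.89) and Gimap3 (0.88). Of these, Cd8a and Cd8b1 encode the coreceptor of cytotoxic T cells. After the 16 group means were removed, the 10 were Ighd (0.89), Spib (0.86), Kif21b (0.83), H2-Ob (0.80), Pou2af1 (0.80), Gimap3 (0.80), Bcl2 (0.79), Spn (0.76), Trbc2 (0.76) and Ighm (0.76). Among the members, r with the mean of the other 7 was highest for Ms4a1 (0.94), Blk (0.94) and Cd79a (0.93) and lowest for Cd22 (0.53), Pax5 (0.62) and Cr2 (0.64).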

How the data were processed

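The authors sequenced lung mRNA of 48 mice and deposited 1 table of FPKM values, which they derived with Cufflinks after mapping reads to mm10 with GSNAP. The handling of multiply mapped reads is not given in the sources used here. Absolute depth is unknown, so precision comes from the spread between mice. Relative depth, read from the steps of low values, was 0.771 to 1.25, but only 9.29% to 16.0% of low ratios were on the step, so no counts were recovered. Summed FPKM was 510933 to 748290 per lung. The club cell transcript Scgb1a1 made up 10.4% to 30.2% of it in room air lungs and 1.20% to 7.17% in hyperoxic lungs. The make-up of the summed FPKM thus differed with air. Akap5 (failed estimates in 7 lungs) was left out.

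Groups came from the sample labels, and mice are numbered 1 to 48, so none are paired. Nothing states that mice were housed or collected apart, so p-values measure the spread between these mice. Log2(FPKM + 1) was fitted with limma 3.58.1 (R 4.3.3) as 16 group means, and contrasts were averaged over the other factors, with eBayes with a trend and Benjamini-Hochberg adjustment over the 16994 genes that reached 1 FPKM in 3 or more lungs. All 8 members passed this filter. The threshold was an adjusted p of 0.05, two-sided. Coordinates are from GENCODE M21. The fits were tested on simulated data.

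The 8 members and the gene lists were chosen with earlier results of these data known. From each B lineage list, and the list of factors that attract B cells or keep them alive, the text names at most 4 genes a comparison, those with the largest difference among genes past the threshold, or the most abundant where none passed, besides the 10 genes most like the members and Ptprc. 1 gene that this rule named is not reported here, and it is counted in its lists. Fits were repeated with quantile normalization, median ratio scaling, a pseudocount of 0.1, no filter or one at 0.1 FPKM, array weights, no trend in eBayes, mice of 1 injection or 1 sex, and without each mouse in turn.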

Additional observations from a re-analysis of the deposited data

Results flagged for a closer look

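In each strain, injection and air, the 6 mice were searched for a value far from the others with Dixon's ratio (95% level). Of 64 sets 5 had one, and chance flags about 1 in 20 such sets. Mouse 1 (C3H, saline, room air) had a Cd79b of 36.0 FPKM, with the next mouse at 18.0, and a Pax5 of 10.8 FPKM, with the next at 3.00. Mouse 40 (C57B, ATG, room air) had a Pax5 of 7.79 FPKM, with the next at 3.50. Mouse 35 (C3H, ATG, hyperoxia) had a Cr2 of 2.07 FPKM, with the next at 0.842. Mouse 19 (C57B, saline, hyperoxia) was listed at 0 for Cr2, where the 5 others were between 0.0566 and 0.0657. All 6 of these values are near the floor, and the number of fragments behind them is unknown.

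The strain difference of B lineage genes other than the 8 differed between the airs for 26 of 50 by the test of that difference. Among receptor signalling genes it was 1.05 for Bank1, 0.83 for Blnk and 0.62 for Plcg2 (log2 scale, hyperoxia minus room air). Among transcription factors it was 0.93 for Spib, 0.73 for Bcl11a, 0.65 for Pou2f2 and 0.59 for Irf4. Among surface genes it was 1.93 for Fcer2a, 1.25 for H2-Ob, 1.13 for Ltb and 1.07 for Ly6d. It was 1.06 for Iglc3 and 0.95 for Ighd among constant regions, 0.66 for Mzb1, 0.42 for Prdm1 and -0.62 for Fkbp11 among plasma cell genes, and 1.07 for Vpreb3. Of the attracting and survival factors, it was 1.20 for Tnfsf13b, 1.04 for Tnfsf13 and -0.97 for Cxcl13.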

How the results depend on the processing

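The median difference of the 8 genes kept its sign for strain in room air, for hyperoxia in C57B and for the dependence of strain on air under all 11 other settings and without each of the 48 mice. With a pseudocount of 0.1 the last 2 moved to -1.72 and 1.18. The median for hyperoxia in C3H was 0.02 in ATG mice, against -0.31, and that for strain in hyperoxia ran from -0.15 to 0.02 without each mouse. The count of other B lineage genes past the threshold moved by over 1.5 times mainly in fits of 1 injection or 1 sex, which hold fewer mice. It was 11 in ATG mice and 10 in males for hyperoxia in C3H (21 in all mice), 24 in ATG mice for strain in room air (37), and 10 in saline mice for strain in hyperoxia (18). For the dependence of strain on air it was 6 in saline mice, 12 in ATG mice, 13 in males and 7 in females (26). With array weights 5 genes passed for ATG (0), and the cause was not tested. For hyperoxia in C3H, 4 genes had the other sign, Pou2f2 (0.0687), Ltb (0.15) and Tnfrsf13c (0.0519) in ATG mice and Tnfsf13b (0.20) in males. Without each mouse in turn the counts were 16 to 24 for hyperoxia in C3H, 41 to 47 in C57B, 36 to 39 and 16 to 21 for strain in room air and hyperoxia, 21 to 28 for the dependence of strain on air and 0 for ATG and the 4 tests of sex. No paired analysis was possible because each mouse has its own number. FPKM without counts limits the lowest values, such as those of Cr2 and Blk.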
